A study of Mus musculus with 6 samples.

Results

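The lipid droplet and triglyceride module is a set of 33 genes for coating the lipid droplet, supplying and activating fatty acids, building triglyceride and cholesterol ester, and breaking stored fat down again. Members were chosen by gene symbol from these roles, and 31 of the 33 had a probe set named for them alone, out of 18193 genes measured. Acsl1 and Soat1, a fatty acid-activating enzyme and a cholesterol-esterifying enzyme, were not analysed here. The samples were 3 macrophage cultures from E-FABP knockout mice and 3 from wild-type mice, all given as strain C57BL/6 and 6 to 8 weeks old. E-FABP, encoded by Fabp5, is a small cytosolic carrier of fatty acids first described in skin. Bone marrow cells of both genotypes were grown for 7 days with GM-CSF, a growth factor that gives macrophages along with cells of dendritic character, and then spent 18 h beside E0771 mouse breast tumour cells held in a culture insert. All 6 samples had the tumour cells, so the comparison asks how tumour-exposed knockout and wild-type cells differ.

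A lipid droplet is a core of triglyceride and cholesterol ester under a layer of phospholipid and coat proteins. Fatty acids enter the cell, are joined to coenzyme A by acyl-CoA synthetases, and are built onto glycerol step by step by acyltransferases, lipins and the diacylglycerol acyltransferases. Lipolysis reverses this through adipose triglyceride lipase, hormone-sensitive lipase and monoglyceride lipase in turn. In macrophages the droplet stores surplus fatty acid and cholesterol, and cells rich in droplets are known from atherosclerotic plaques and tumours.

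Each Affymetrix array gave 1 value per probe set on the log2 scale, on which a difference of 1 is a doubling of signal. The median value of an array lay between 5.60 and 5.64. Fabp5, the targeted gene, read 8.13, 8.31 and 8.39 in the knockout cultures, against 14.47, 14.41 and 14.45 in the wild-type cultures, at its brighter probe set, so every array matched its label. The labels do not say which exons were removed. They call the samples biological replicates, but do not say whether each culture came from an animal of its own. The p-values therefore speak of the spread between these 6 samples, which may be technical. RNA came from whole cultures, so fewer cells of a type and less RNA per cell cannot be told apart.

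None of the 31 measured members passed the test between knockout and wild type. At an adjusted p under 0.05 from limma across all probe sets, 0 were higher and 0 lower, where 2.85% of all genes were higher and 2.05% lower, 4.9% in all. The differences were small in both directions. By mean alone, 13 members were higher and 18 lower in knockout, beside 9662 higher and 8531 lower of all 18193 genes. Knockout minus wild type ran from -0.28 for Dgat2 to 0.34 for Lpin1, with a median of -0.03 against 0.01 over all genes. The median size, whatever its sign, was 0.11 for the members and 0.10 for all genes. For 30 of the 31 members the 95% interval of the difference lay within 0.5 on either side of 0, and for Lpin1 it reached 0.56, or 1.48-fold. Each interval covers its own gene only and rests on limma's moderated spread.

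**Figure D1:**
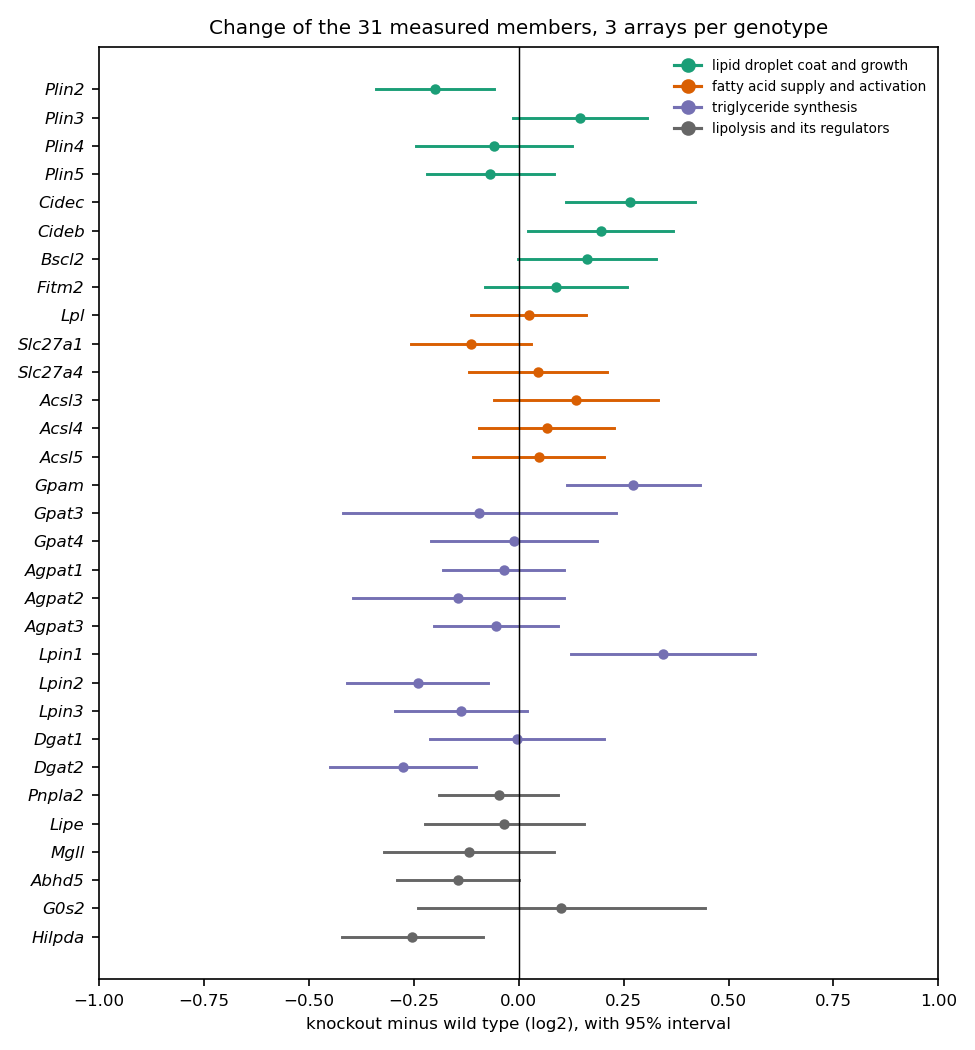
Log2 difference (knockout minus wild type) for each of the 31 measured members, with its 95% interval, coloured by role. Points scatter on both sides of 0 between -0.28 and 0.34.

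At an unadjusted p under 0.05 there were 8 members, 4 higher (Lpin1, Gpam, Cidec and Cideb) and 4 lower (Dgat2, Hilpda, Lpin2 and Plin2). These 8 are 25.8% of the members, beside 23.4% of all genes by the same rule, of which 15.2% were higher and 8.15% lower. In 14 members, or 45.2%, the 3 knockout values did not overlap the 3 wild-type values, 6 lying above and 8 below, where 20.7% of all genes lay above and 11.2% below, 31.9% in all. At the looser adjusted p under 0.1, 3 members were higher and 2 lower, or 16.1%, beside 10.7% of all genes. Over all genes, 1312, or 7.21%, differed by more than any member did.

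**Figure D2:**
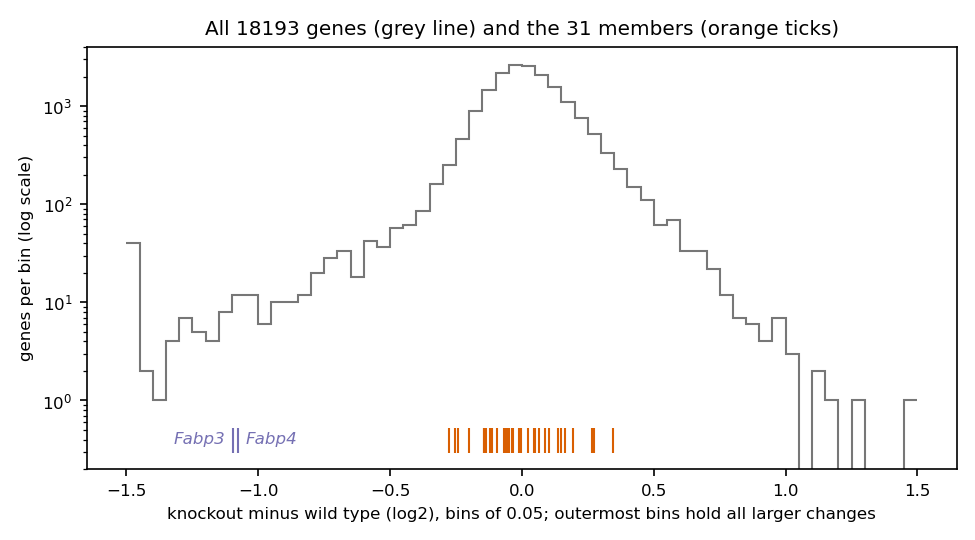
Number of genes (log axis) by log2 difference (knockout minus wild type) for 18193 genes, with orange ticks for the 31 members and violet ticks for the related genes Fabp3 and Fabp4. The members lie between -0.28 and 0.34, inside the bulk of all genes, while Fabp3 and Fabp4 lie near -1.1.

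The call depended on the setting of the fit. Among probe sets above the median level alone, Plin2, Gpam and Dgat2 passed, with limma adjusted p of 0.0475, 0.0355 and 0.0471. Cidec and Lpin2 passed in other settings, given below. When limma let the prior spread follow the signal level and guarded it against outlying genes, Plin2, Hilpda, Gpam and Lpin1 passed, with adjusted p of 0.00577, 0.0148, 0.0363 and 0.0455. Across the 15 alternatives the adjusted p ran from 0.00577 to 0.250 for Plin2, from 0.0148 to 0.238 for Hilpda, from 0.0355 to 0.193 for Gpam and from 0.0455 to 0.207 for Lpin1. Under that setting 3126 of 45037 probe sets were called, against 1691 (3.75%) in the reported fit. Reference sequence upstream of these 4 members is shown so that their regulatory regions can be read beside the values. It comes from RefSeq on GRCm38.p6 and is written 5′ to 3′ on the gene's strand. Each run covers the 250 bases before an annotated start, or 30 bases around a match for Hilpda. Gpam and Hilpda had 2 windows each. The window shown was picked for having the most motif matches, then for lying furthest upstream. Capitals mark a CCAAT box (CCAAT, or ATTGG on the other strand), the site of the factor NF-Y, or ACGTG, the core of the hypoxia response element.
Plin2, chr4:86670060-86670309, minus strand: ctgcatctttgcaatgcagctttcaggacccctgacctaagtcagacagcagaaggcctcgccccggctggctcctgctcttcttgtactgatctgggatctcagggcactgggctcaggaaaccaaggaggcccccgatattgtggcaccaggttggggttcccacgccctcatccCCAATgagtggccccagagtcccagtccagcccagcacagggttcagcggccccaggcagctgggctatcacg
Hilpda, chr6:29272571-29272600, plus strand: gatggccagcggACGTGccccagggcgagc
Gpam, chr19:55127239-55127488, minus strand: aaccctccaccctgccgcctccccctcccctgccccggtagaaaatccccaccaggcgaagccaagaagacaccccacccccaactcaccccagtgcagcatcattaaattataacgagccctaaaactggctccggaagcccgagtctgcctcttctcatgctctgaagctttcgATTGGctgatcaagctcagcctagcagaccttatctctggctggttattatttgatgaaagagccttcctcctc
Lpin1, chr12:16610967-16611216, minus strand: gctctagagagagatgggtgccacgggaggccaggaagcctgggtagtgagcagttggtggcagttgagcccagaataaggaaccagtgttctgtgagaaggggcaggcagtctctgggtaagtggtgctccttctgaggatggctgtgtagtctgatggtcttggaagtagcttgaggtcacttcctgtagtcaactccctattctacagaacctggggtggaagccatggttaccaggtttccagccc
The CCAAT box begins 73 bases before the start of Plin2 and 74 before the start picked for Gpam. ACGTG begins 43 bases before the second annotated start of Hilpda. Of 32851 windows of 250 bases over all genes, 33.8% held a CCAAT box and 16.6% held ACGTG on either strand. These shares count every window, with none picked by its matches. The 27 measured members with an entry had 41 windows, of which 12 (29.3%) held a CCAAT box and 10 (24.4%) held ACGTG. A sterol regulatory element written as TCACNCCAC was in 1.05% of all windows and in 0 windows of these members. A match in letters does not show that a factor binds there.

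The droplet coat and growth group holds 8 members, of which 5 had a higher and 3 a lower mean in knockout. Plin2, the perilipin that coats droplets in macrophages and is stabilised by stored lipid, read 13.87, 13.88 and 13.93 in knockout and 14.07, 14.12 and 14.09 in wild type. Every knockout value was below every wild-type value, by a small margin and with little scatter (difference -0.20, SE 0.06, 95% interval -0.34 to -0.06, limma adjusted p = 0.112). These readings lie near the top of the scale, whose highest value on any array was 15.01, and whether the signal was saturated there was not tested.

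Plin3, a perilipin that also binds nascent droplets from the cytosol, stood the other way. It read 9.67, 9.80 and 9.68 in knockout and 9.52, 9.64 and 9.56 in wild type, a difference of 0.15 (SE 0.07, limma adjusted p = 0.287). The groups were next to each other without overlap. Plin4 and Plin5, perilipins best known from fat tissue and oxidative muscle, differed by -0.06 and -0.07, with overlapping values. The further probe set of Plin5 gave 0.04.

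Cidec, a protein that fuses droplets in adipocytes, had the smallest p of all members. Its values were 3.98, 4.07 and 3.93 in knockout and 3.68, 3.75 and 3.74 in wild type, a difference of 0.27 (SE 0.07, 95% interval 0.11 to 0.42, limma adjusted p = 0.0655). All 6 values lie at or under the 20th percentile of the whole table, 4.07, so the difference is one between signals in the dimmest part of the arrays. It passed after quantile normalization (adjusted p = 0.0483) and when tested among gene means (0.0348), over a range of 0.0348 to 0.190 across the alternatives that gave it a value. Cideb, its relative known for lipoprotein loading in liver, read 6.20, 6.29 and 6.43 in knockout and 6.16, 6.11 and 6.06 in wild type. The 3 knockout values were the higher ones (difference 0.20, SE 0.08, limma adjusted p = 0.193).

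Bscl2 codes for seipin, which sits where droplets bud from the endoplasmic reticulum. It read 10.39, 10.50 and 10.55 in knockout and 10.37, 10.35 and 10.24 in wild type, a difference of 0.16 (SE 0.07, limma adjusted p = 0.255) without overlap. Its further probe set gave 0.02, so the size rests on which probe set is read. Fitm2, which aids droplet budding, differed by 0.09 with overlapping values.

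**Figure D3:**
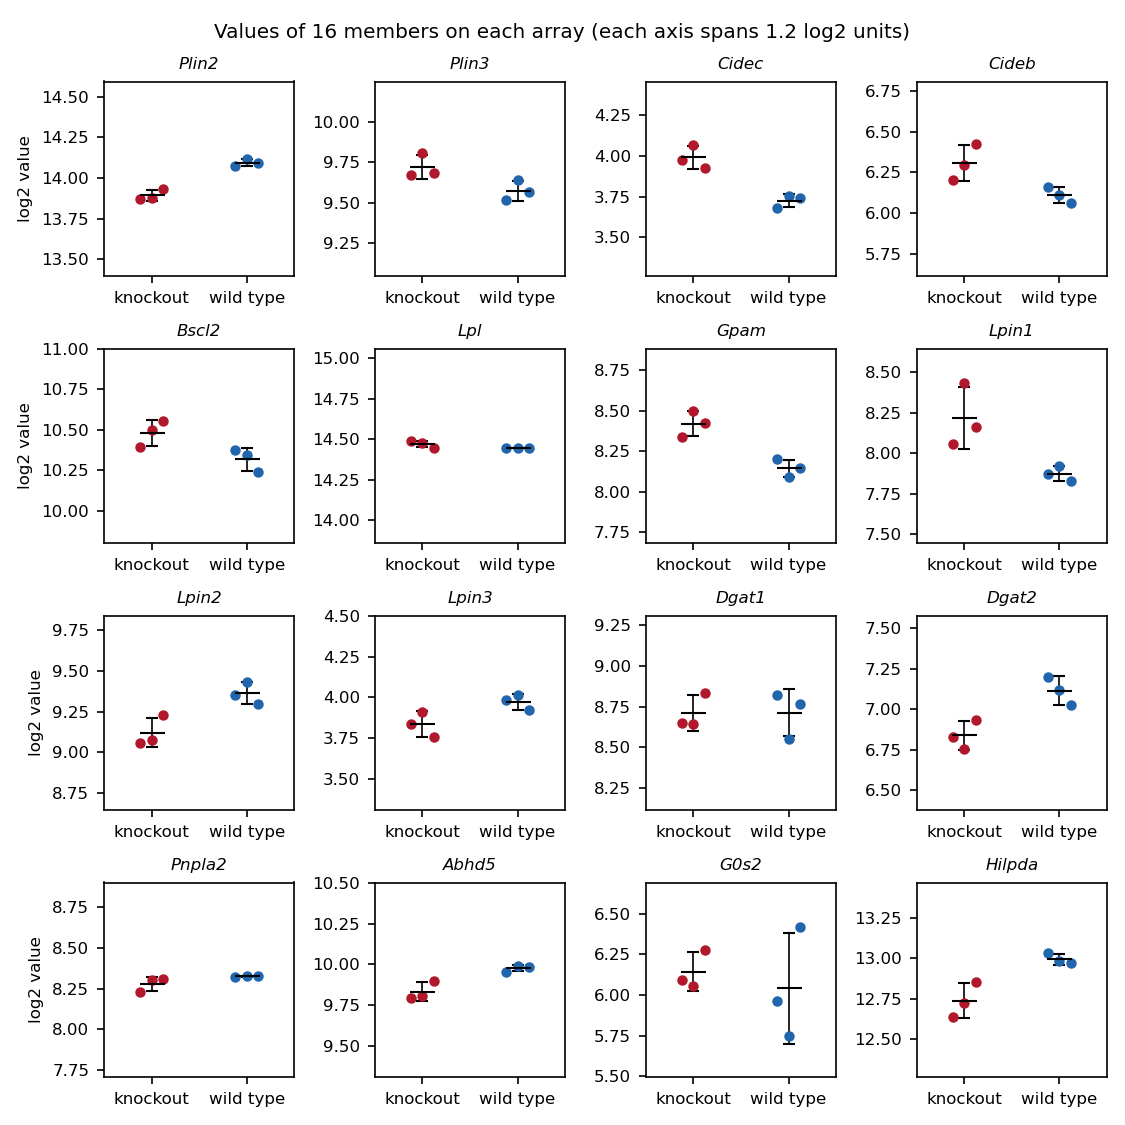
Values (log2) of 16 members on each of the 3 knockout arrays (red, left) and 3 wild-type arrays (blue, right), with the mean and SD as black bars; every vertical axis spans 1.2 log2 units. Lpl and Dgat1 overlap between genotypes, while Plin2, Gpam, Lpin1, Dgat2 and Hilpda do not.

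Fatty acid supply and activation was the flattest group. Its 6 measured members differed by -0.11 to 0.14, and 0 reached an unadjusted p under 0.05. Lpl, lipoprotein lipase, which frees fatty acids from lipoprotein triglyceride and is strongly made by macrophages, read 14.49, 14.47 and 14.45 in knockout and 14.45, 14.45 and 14.45 in wild type. The difference was 0.02 (95% interval -0.11 to 0.16, limma adjusted p = 0.877), again near the top of the scale. Its further probe set, which read lower, gave 0.01.

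Slc27a1, a fatty acid transport protein, was the sole member of this group whose genotypes did not overlap at the brightest probe set. It read 7.27, 7.23 and 7.25 in knockout and 7.34, 7.42 and 7.34 in wild type (difference -0.11, SE 0.06, limma adjusted p = 0.363). The further probe set of Slc27a1, of similar level, gave -0.05 with overlapping values. Slc27a4, its relative, differed by 0.05. The acyl-CoA synthetases Acsl3, Acsl4 and Acsl5 differed by 0.14, 0.07 and 0.05. Acsl4, which prefers arachidonic acid, had further probe sets at 0.05 and 0.01, so all of its readings were close to 0.

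Triglyceride synthesis held the widest differences, and they ran both ways among enzymes of the same step. Of 11 members, 2 had a higher and 9 a lower mean in knockout, with a median of -0.05. Gpam, the mitochondrial glycerol-3-phosphate acyltransferase that starts the pathway, read 8.34, 8.50 and 8.42 in knockout and 8.20, 8.09 and 8.14 in wild type. All knockout values were above all wild-type values (difference 0.27, SE 0.07, 95% interval 0.11 to 0.43, limma adjusted p = 0.0666). The dimmer probe set of Gpam gave 0.06.

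The other acyltransferases showed no such separation. Gpat3 and Gpat4, which carry out the same first step in the endoplasmic reticulum, differed by -0.09 and -0.01, and Agpat1, Agpat2 and Agpat3, which add the next acyl chain, by -0.04, -0.14 and -0.05. All 5 overlapped between genotypes. Knockout replicate 2 was the lowest array for Agpat2, at 8.30 against 8.62 and 8.76 on the other knockout arrays. Agpat3 had 4 probe sets that ranged from -0.16 to 0.20.

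The lipins convert phosphatidic acid to diacylglycerol and also act on transcription in the nucleus. Lpin1 had the largest difference of all members, with 8.06, 8.43 and 8.16 in knockout and 7.87, 7.92 and 7.83 in wild type. Knockout replicate 2 was the highest array, and the groups did not overlap (difference 0.34, SE 0.10, 95% interval 0.12 to 0.56, limma adjusted p = 0.0875). Its further probe set gave 0.37, and without knockout replicate 2 the difference was 0.24. The same array stood apart from the other knockout arrays in cell markers, with a mean level of dendritic cell markers of 8.69 against 8.31 and 8.23, and of neutrophil markers of 8.62, the lowest of the 6 arrays. The part of this in the Lpin1 difference was not tested.

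Lpin2, whose human counterpart is mutated in the inflammatory bone disease Majeed syndrome, lay the other way. It read 9.06, 9.08 and 9.23 in knockout and 9.35, 9.43 and 9.30 in wild type, a difference of -0.24 (SE 0.07, 95% interval -0.41 to -0.07, limma adjusted p = 0.110). Its 3 further probe sets gave -0.15, -0.32 and -0.35, so all 4 were lower in knockout. Tested on the mean of these 4 probe sets, Lpin2 passed (difference -0.27, adjusted p = 0.0286, over a range of 0.0286 to 0.264 across the alternatives). Lpin3 read 3.84, 3.91 and 3.76 in knockout and 3.98, 4.01 and 3.92 in wild type, below the 20th percentile on all arrays (difference -0.14, SE 0.07, limma adjusted p = 0.315).

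The last step, from diacylglycerol to triglyceride, is shared by Dgat1 and Dgat2, which are unrelated in sequence. Dgat2 read 6.83, 6.76 and 6.93 in knockout and 7.20, 7.12 and 7.03 in wild type, with every knockout value the lower (difference -0.28, SE 0.08, 95% interval -0.45 to -0.10, limma adjusted p = 0.0849). Its dimmer probe set gave -0.11. Among probe sets above the median level alone, Dgat2 passed with an adjusted p of 0.0471, and its range over the alternatives was 0.0471 to 0.230. Dgat1 read 8.65, 8.64 and 8.84 in knockout and 8.82, 8.55 and 8.77 in wild type. Its values were intermingled (difference -0.00, 95% interval -0.21 to 0.20, limma adjusted p = 0.989).

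**Figure D4:**
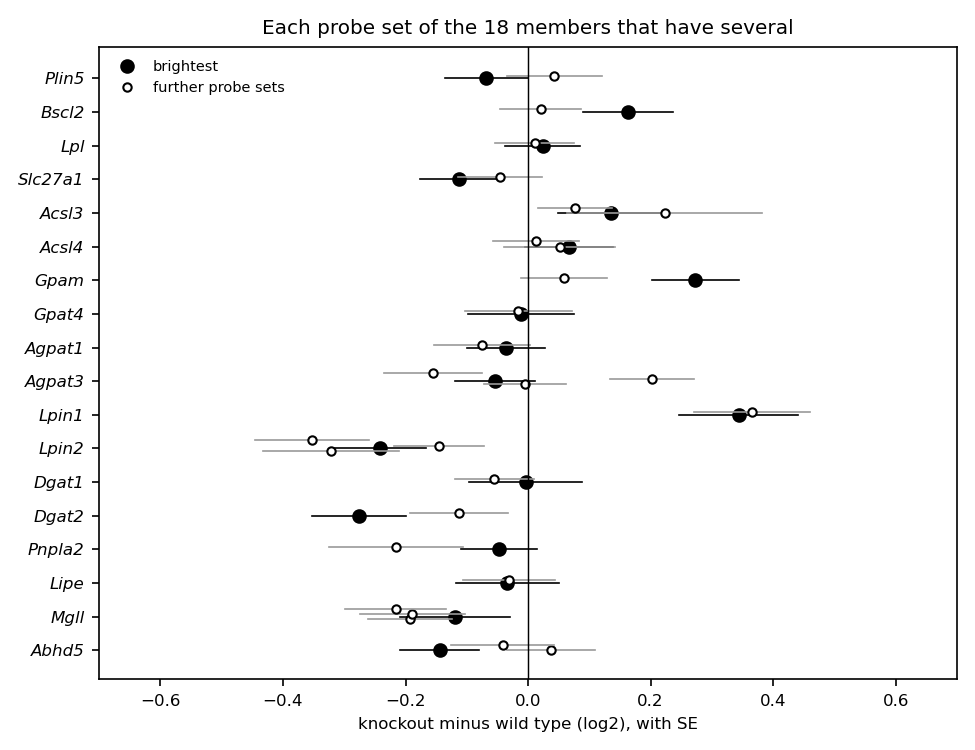
Log2 difference (knockout minus wild type), with SE, for every probe set of the 18 members that have several; filled points are the brightest probe set of the gene. The probe sets of Lpin1 and Lpin2 lie on opposite sides of 0, and those of Agpat3 on both sides.

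Lipolysis genes had means close to or slightly below wild type. Of 6 members, 1 was higher and 5 lower in knockout, with a median of -0.08. Pnpla2, adipose triglyceride lipase, which takes the first fatty acid off triglyceride, read 8.23, 8.30 and 8.31 in knockout and 8.32, 8.33 and 8.33 in wild type. The knockout values were all the lower, by a small amount (difference -0.05, 95% interval -0.19 to 0.09, limma adjusted p = 0.734). Its much dimmer further probe set gave -0.22. Abhd5, its coactivator, read 9.80, 9.80 and 9.90 in knockout and 9.95, 9.99 and 9.99 in wild type (difference -0.14, SE 0.06, limma adjusted p = 0.253). Its groups did not overlap, but further probe sets gave 0.04 and -0.04.

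G0s2 and Hilpda code for small inhibitors of that lipase. Hilpda, known as a target of hypoxia signalling, read 12.64, 12.73 and 12.85 in knockout and 13.03, 12.98 and 12.97 in wild type. All knockout values were below all wild-type values (difference -0.25, SE 0.07, 95% interval -0.42 to -0.09, limma adjusted p = 0.0965). G0s2 read 6.09, 6.06 and 6.28 in knockout and 5.96, 5.75 and 6.42 in wild type. The wild-type arrays spread over more than the knockout arrays and enclosed them (difference 0.10, SE 0.15, 95% interval -0.24 to 0.44, limma adjusted p = 0.769). Lipe, hormone-sensitive lipase, and Mgll, monoglyceride lipase, differed by -0.03 and -0.12 with overlapping values. The 3 further probe sets of Mgll gave -0.22, -0.19 and -0.19, each larger in size than the brightest. Their unadjusted limma p was 0.0270, 0.0197 and 0.0553, and their adjusted p 0.180, 0.153 and 0.261. The second of these did not overlap between genotypes.

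Of the 18 members with several probe sets, all probe sets shared a sign in 15, and Plin5, Agpat3 and Abhd5 were the exceptions. None of the 58 probe sets of members passed the test, and 14 had an unadjusted limma p under 0.05. Among all genes, each read at its brightest probe set, 23.4% met that rule. The share over all probe sets was not counted, so the 14 are not read as an excess. With each array left out in turn, the differences of the 8 members at an unadjusted p under 0.05 changed in size. Their sign could not turn, because the genotypes of all 8 do not overlap. The lowest adjusted p of any member in those 6 fits was 0.0737.

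**Figure D5:**
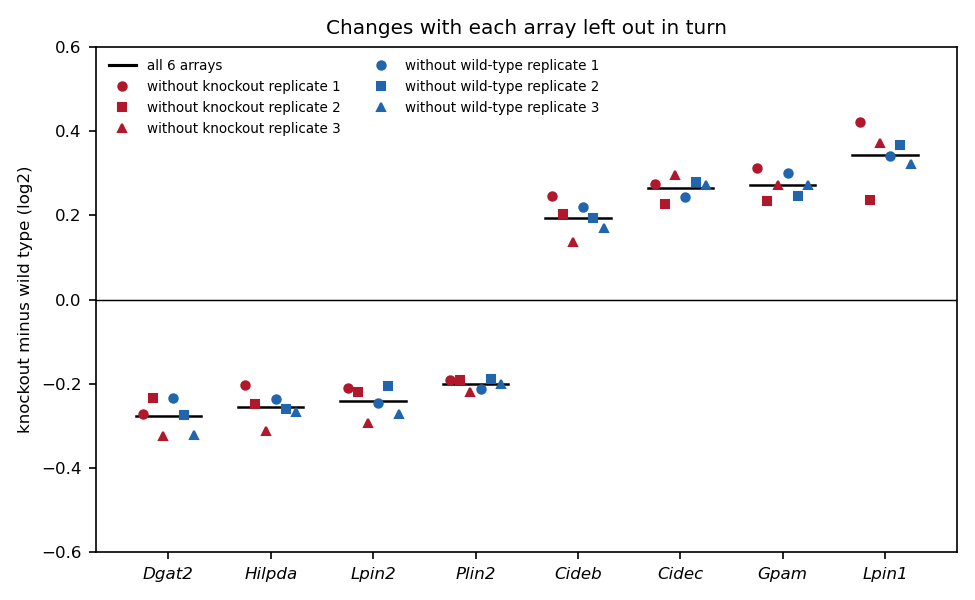
Log2 difference (knockout minus wild type) for the 8 members at an unadjusted p under 0.05, with all 6 arrays (black line) and with each array left out (red for a knockout array, blue for a wild-type array). The spread of points shows how far each size depends on 1 array, most for Lpin1, which gives 0.24 without knockout replicate 2; no point could cross 0, since the genotypes of these members do not overlap.

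Of other genes of the same pathways, 45 of 52 listed were measured. They were listed by role, with earlier results of these data known. Among them 2 (4.44%) were lower in knockout, 0 higher and 43 did not pass. Of all genes, 2.05% were lower and 4.9% differed in either direction. Both that fell are relatives of the deleted gene in the fatty acid-binding family. Fabp4, the adipocyte and macrophage fatty acid-binding protein, read 10.45, 10.01 and 10.21 in knockout and 11.39, 11.34 and 11.19 in wild type (difference -1.08, SE 0.11, 95% interval -1.33 to -0.83, limma adjusted p = 0.00811). Fabp3, the heart-type protein, read 8.00, 7.74 and 8.21 in knockout and 9.14, 9.22 and 8.88 in wild type (difference -1.10, SE 0.13, 95% interval -1.38 to -0.81, limma adjusted p = 0.0127). Whether probes for either also bind the Fabp5 transcript was not tested. Without knockout replicate 1 or wild-type replicate 2, Fabp3 did not pass (highest limma adjusted p with an array left out = 0.0611). With dim values set to the 20th percentile neither gene passed (adjusted p = 0.0800 for Fabp4 and 0.0918 for Fabp3), and Fabp3 averaged over its probe sets differed by -0.59.

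The remaining droplet, synthesis and lipase relatives did not pass. The droplet proteins ran from -0.11 to 0.11, the synthesis enzymes from -0.20 to 0.15 and the lipases from -0.15 to 0.24. Cd36, a scavenger receptor and fatty acid translocase, read 13.76, 13.71 and 13.74 in knockout and 13.93, 13.88 and 13.80 in wild type (difference -0.13, limma adjusted p = 0.294). Its knockout values were all the lower. Cd36 and the transcription factors named next were chosen after their values were seen.

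Of 21 listed transcription factors and cofactors of lipid genes, 20 were measured and 0 passed. At an unadjusted p under 0.05, 5 were higher and 1 lower, 6 of 20 in all, beside 23.4% of all genes (15.2% higher and 8.15% lower). The sterol regulatory element-binding factors Srebf1 and Srebf2 and their escort Scap differed by 0.21, 0.26 and 0.25, with limma adjusted p of 0.146, 0.140 and 0.120. Insig1 and Insig2, on the same list, differed by 0.04 and -0.15 (limma adjusted p = 0.869 and 0.367). Pparg, the fatty acid-sensing receptor that drives many droplet genes, differed by 0.22 (adjusted p = 0.237). The coactivators Ppargc1b and Ppargc1a differed by 0.36 and -0.32 (adjusted p = 0.145 and 0.0709). Ppargc1b passed without knockout replicate 3 (adjusted p = 0.0318; up to 0.352 with another array left out).

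The mean levels of some marker lists did not overlap between genotypes, and some markers passed the test. Of all genes, 2.85% were higher and 2.05% lower past it. Dendritic cell markers, 11 of 12 measured, had a mean level of 8.23 to 8.69 in knockout and 7.84 to 8.12 in wild type. Of these 11, 1 (9.09%) was higher and 0 lower past the test. Neutrophil markers, 11 of 13 measured, had a mean level of 8.62 to 9.20 in knockout and 9.31 to 9.57 in wild type, with 0 past the test. Fibroblast and stromal markers, all 10 measured, had a mean level of 5.04 to 5.15 in knockout and 5.49 to 5.59 in wild type. Of these 10, 3 (30%) were lower and 0 higher past the test. The 3 were Col1a2 (difference -1.29, limma adjusted p = 0.00401), Dcn (-1.10, 0.0158) and Col3a1 (-0.48, 0.0219). Col3a1 lay under the median of all values. More markers lay at an unadjusted limma p under 0.05, where 15.2% of all genes were higher and 8.15% lower. Dendritic cell markers had 7 higher and 0 lower, and neutrophil markers 1 higher and 8 lower. Fibroblast and stromal markers had 0 higher and 7 lower. Adipocyte markers, 8 of 10 measured, had a mean level of 5.14 to 5.20 in knockout and 5.23 to 5.27 in wild type, and 6 of the 8, Adipoq and Lep among them, lay under the median of all values. Macrophage markers stood at 11.63 to 11.82 in knockout and 11.90 to 11.94 in wild type, with 3 of 10 means higher and 7 lower. Past the test 2 of the 10 (20%) were lower, beside 2.05% of all genes. They were Fcgr1 (difference -1.13, limma adjusted p = 0.0227) and Mertk (-0.46, 0.0234). Lyz2 stood at 14.83 to 14.85 on all 6 arrays, near the top of the scale. Tumour epithelial markers (8 of 8 measured), T, NK and B cell markers (7 of 9) and erythroid markers (4 of 6) had 0 past the test, with median differences of -0.04, -0.01 and 0.01. The mean level of the T, NK and B cell markers was 5.16 to 5.23 in knockout and 5.24 to 5.26 in wild type, without overlap. Those of the tumour epithelial and erythroid markers overlapped. No marker reads 0 on this scale, and the part of these shifts in the members' differences was not tested.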

How the data were processed

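RNA of 6 macrophage cultures was measured on Affymetrix expression arrays, 1 per culture. The authors deposited normalized log2 values for 45101 probe sets. RMA and the packages GCRMA 2.30.0, limma 3.14.4 and affy 1.36.1 are listed, with no role or order, per the submitters' processing notes. Both GCRMA and RMA make the arrays' distributions alike, and they differ most for dim probe sets. The log2 scale was inferred from the values, which reach 15.01 at most.

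Control probe sets (64) were left out and 45037 tested, with no filter on dim signals. The platform annotation gave 1 gene for 34945 probe sets, several for 932 and none used here for 9160, with symbols updated through RefSeq. The brightest probe set by mean over the 6 arrays stood for a gene. Genotypes were compared in limma 3.58.1 under R 4.3.3, with genotype as the only term in lmFit and eBayes (prior degrees of freedom 5.04), two-sided, and p-values were adjusted by Benjamini-Hochberg across the 45037 probe sets. With 3 arrays against 3, permuting the arrays cannot give a two-sided p under 0.1. Simulated arrays with known changes were used to check the code. The members and gene lists were chosen with earlier results of these data known. Each member is named; values per array are given for the 12 with the smallest p and for Plin2, Dgat1, Dgat2, Pnpla2, Lpl and G0s2, and for genes of the related lists past the threshold. Values per array of Slc27a1, Cd36 and Agpat2 were added outside this rule after they were seen. Within a genotype, arrays correlated at 0.9965 to 0.9977 across probe sets. Alternatives were quantile normalization, median centring, above-median probe sets only, a floor at the 20th percentile (4.07), trend and robust eBayes, array weights, a replicate block, leaving out _s_at and _x_at probe sets, gene means, leaving out each array, and an adjusted p under 0.1.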

Additional observations from a re-analysis of the deposited data

How the results depend on the processing

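Of 505 changes recomputed for the 31 members and the genes Fabp3, Fabp4 and Fabp5 under 15 alternatives, 475 kept their direction and their side of the threshold. The number of members higher in knockout, 0 in the reported fit, was 2 with trend and robust settings, 1 after quantile normalization, 1 among gene means, 1 among above-median probe sets and 3 at an adjusted p under 0.1. The number lower was 2, 0, 1, 2 and 2 in these settings, and both numbers were 0 in all other alternatives, leaving out each array included. The cause was not tested. Probe sets called, 1691, numbered 71 with the floor, 2692 of above-median ones, 3126 with trend and robust settings, 92 with the replicate block, 3775 at an adjusted p under 0.1, and from 40 to 1360 with an array left out (40 and 326 when knockout replicate 1 or 2 was dropped, and 343, 104 and 953 when wild-type replicate 1, 2 or 3 was). The replicate numbers are not shown to pair the arrays: deviations of same-numbered arrays correlated at -0.13 to -0.04, and no array correlated best with its own number. Under the block no member passed, and related genes lower were 1 in place of 2. Related genes lower were 0 with the floor and 1 to 2 with an array left out, and transcription factors called were 1 higher without knockout replicate 3 and 1 lower at an adjusted p under 0.1. The members' median, -0.03, ran from -0.0627 to 0.0242 with an array left out, the highest without wild-type replicate 3. Signs turned for 8 members whose values overlapped between genotypes. Their differences in the reported fit ran from -0.09 for Gpat3 (SE 0.14) to 0.10 for G0s2 (SE 0.15). Dgat1 gave 0.0073 after median centring and -0.0853 to 0.0493 with an array left out, turning without knockout replicates 1 or 2 or wild-type replicates 1 or 3. Slc27a4 gave -0.0106 after quantile normalization and -0.0129 to 0.0806 with an array left out, turning without knockout replicate 3. Plin5 gave 0.0431 without _s_at and _x_at probe sets. With an array left out Plin4 ran from -0.110 to 0.0104, Lipe from -0.104 to 0.0262, Gpat3 from -0.218 to 0.0511, Gpat4 from -0.0571 to 0.0595 and G0s2 from -0.0464 to 0.288. Signal over background could not be judged, since no detection calls were used here; Cidec and Lpin3, at the floor, gave no value there.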
